A study of Homo sapiens with 21 samples.

Results

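The genes described here are 33 genes of protein folding in the endoplasmic reticulum (ER) and of the early secretory pathway, chosen by symbol from the 23201 gene symbols measured in a time course of TGFβ treatment. They comprised 5 ER stress sensors and transcription factors (*ATF6*, *ERN1*, *XBP1*, *CREB3L1*, *CREB3L2*), 9 chaperones and co-chaperones (*HSPA5*, *HSP90B1*, *HYOU1*, *DNAJB9*, *DNAJB11*, *DNAJC3*, *SDF2L1*, *MANF*, *CRELD2*) and 6 lectin chaperones and disulfide isomerases (*CALR*, *CANX*, *PDIA3*, *PDIA4*, *PDIA6*, *P4HB*). The remaining members were 4 genes of ER-associated degradation (*EDEM1*, *HERPUD1*, *SEL1L*, *SYVN1*), 3 of translocation into the ER (*SEC61A1*, *SEC61B*, *SSR1*), 5 of the COPII coat and of KDEL retrieval (*SEC23A*, *SEC24D*, *SEC31A*, *KDELR2*, *KDELR3*) and the collagen chaperone *SERPINH1*. The rule uses gene symbols alone, but the members were chosen with earlier results of these data known. Counts set beside the share of all genes are therefore not those of a list drawn blind. All 33 had a mean of at least 10 and were among the 13343 genes tested. Total RNA was sequenced from HMLE, a mammary epithelial cell line of human origin that was immortalized in culture, left untreated (d0) or treated with TGFβ, a cytokine that induces epithelial-to-mesenchymal transition (EMT), for 1, 4, 7, 10, 15 or 20 days (d1 to d20). Each of the 7 timepoints had 3 libraries, which the study's data availability statement describes as biological triplicates. The labels do not say whether libraries came from separate cultures, so p-values measure the spread between these libraries only. All groups were the same line plated at one starting density, and no untreated library came from a later day, so day in culture and TGFβ cannot be told apart.

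The gene read counts recovered from the normalised values summed to 18847917 to 22667754 a library. The keratins and other epithelial markers listed (*KRT5*, *KRT14*, *KRT17*, *KRT18*, *CDH1*, *EPCAM*, *TP63*, *ITGA6*) were detected in all 21 libraries. Of the blood markers, *PTPRC* was at 0 in 17 libraries, *CD3E* in 16, *HBB* in 21 and *CD79A* in 1, while *CD14* was detected in all 21. The endothelial marker *CDH5* was at 0 in 18, but *PECAM1*, *VWF* and *KDR* were detected in all 21. *KDR* reached 273.39 normalised reads in its highest library. Libraries of the same timepoint differed by an SD of 0.21 to 0.24 on the log2 scale over all genes tested, except at d7, where library 3 differed from its companions by 0.47 and 0.45. Counts at d7, and single genes whose call turns on it, are therefore also given without library 3. Library numbers follow the order of the table's columns and pair nothing across timepoints.

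Proteins that a cell secretes or displays on its surface enter the ER through the SEC61 channel, fold there with the help of the HSP70-type chaperone BiP and of disulfide isomerases, and leave in COPII-coated vesicles. When unfolded proteins accumulate, the sensors IRE1 and ATF6, together with PERK, start the unfolded protein response, which raises chaperones, degradation factors and transport genes through the transcription factors XBP1 and ATF6. Cells that deposit collagen and fibronectin depend on this pathway, and the comparison asked whether its genes were higher on the days when extracellular matrix genes were high.

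With the deposited scaling, most of the 33 members were higher than in untreated cells at every treated timepoint, and the levels did not climb steadily but had a low at d7, where fewer than most were higher under some of the alternatives given below. At d1, 30 members were higher and 1 was lower (adjusted p under 0.05, limma), where 31.3% of all genes tested were higher and 28.5% lower, and the median log2 fold change of the members was 0.51. At d4, 27 were higher and 1 lower (all genes 36.9% and 35.3%), with a median of 0.54. At d7, 21 were higher and 2 lower (all genes 34.6% and 32.6%), and the median was 0.16. The count rose again at d10, when 28 were higher and 2 lower (all genes 37% and 30.7%, median 0.46), and at d15, when 30 were higher and none lower (all genes 39.2% and 37.3%, median 0.67). At d20, 27 were higher and none lower (all genes 32.5% and 30.2%, median 0.42). The median over all genes lay between -0.00047 and 0.03 in these comparisons. The 6 comparisons share the d0 libraries, so they are not independent of each other. In bulk RNA, fewer cells using a gene and less RNA per cell cannot be told apart.

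In all, 20 members were higher on each of the 6 treated days, and *ATF6* was the member higher on none. The count of 20 depends on the settings, as it cannot exceed the number higher at d7. That number was 12 with libraries rescaled to the same total, 15 under quantile normalization and 18 without d7 library 3. The mean level was highest on d1 for 9 members, on d15 for 12, on d4 for 5 and on d20 for 4, while d10 was highest for 2, d7 for 1 and d0 for 0. The share of all genes higher on each of the 6 days was not computed, nor were the highest days of all genes. Whether these counts are particular to the members is therefore not known. The roles differed in their highest day. Among the 9 chaperones, 5 were highest on d1, 3 on d15 and 1 on d10, and among the 6 lectin chaperones and isomerases 4 were highest on d1 and 2 on d15. Of the 5 COPII and KDEL genes, in contrast, 4 were highest on d4. Without d7 library 3, 18 members were higher and 5 lower at d7 (all genes 36.8% and 34.4%), with a median of 0.10, so the low at d7 did not rest on that library.

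**Figure D1:**
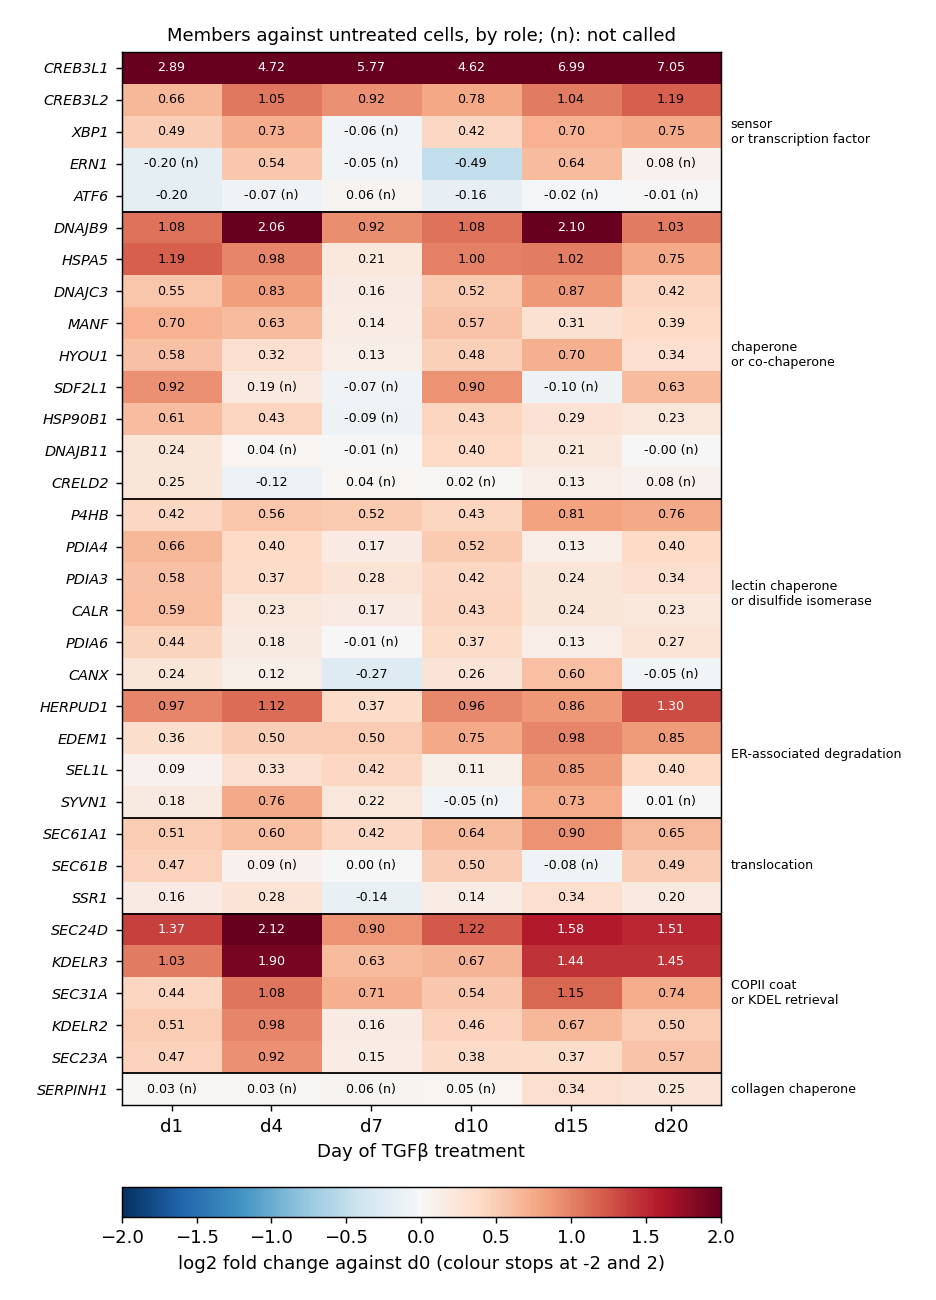
Heatmap of the log2 fold change against untreated cells of the 33 members (rows, grouped by role and ordered by their mean over the 6 treated days) on each day of TGFβ treatment (columns). Red is higher and blue lower than d0, the colour stops at -2 and 2, and (n) marks values with an adjusted p of 0.05 or more. *CREB3L1* has the largest values, from 2.89 at d1 to 7.05 at d20, and the column of d7 is the palest.

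These counts depend on how libraries are scaled to each other. The deposited values of the treated libraries summed to more than those of d0, and rescaling every library to the same total moved the median of all genes to between -0.20 and -0.14 in the comparisons with d0. Under that scaling the members split into 24 higher and 4 lower for d1, 23 and 4 for d4, 12 and 11 for d7, 25 and 6 for d10, 25 and 3 for d15, and 22 and 4 for d20. Of all genes, 18.3% were then higher and 50.2% lower for d1, 25.8% and 49.5% for d4, 22.7% and 49.1% for d7, 21.5% and 50.5% for d10, 30.3% and 47.2% for d15, and 19.9% and 50.8% for d20. The median of the members minus that of all genes was 0.51, 0.54, 0.15, 0.42, 0.65 and 0.42 under the rescaling, in order of day, against 0.51, 0.54, 0.16, 0.42, 0.65 and 0.43 with the deposited scaling. A rescaling multiplies every value of a library by the same factor. This difference could therefore hardly change, and its likeness under both scalings is no support. Quantile normalization gave 25 higher and 4 lower for d4 (all genes 31.7% and 40.9%) and 15 and 4 for d7 (all genes 29.3% and 39.8%). A fit of d0 and d7 alone also gave 15 higher, with 1 lower (all genes 28.2% and 25.6%). A minimum change of 1.5-fold left 12, 15, 6, 10, 19 and 13 members from d1 to d20, all higher. The share of all genes at this minimum was not computed, so these counts have no background beside them.

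Of the sensors and transcription factors, *CREB3L1* had the largest mean change and *ATF6* the smallest. *CREB3L1* encodes an ER-anchored transcription factor that is cut in the Golgi and activates collagen genes in bone. Its normalised read count stood at 0.89, 4.24 and 2.97 (d0), 17.8, 27.7 and 28.8 (d1), 91.5, 78.9 and 96 (d4), 244, 154 and 168 (d7), 86.6, 73.8 and 89.0 (d10), 475, 422 and 399.9 (d15) and 459, 424 and 464 (d20). It was nearly absent in untreated cells, with 9 reads over the 3 libraries, and no treated library overlapped them. The ratio to d0 was 9.14 at d1 (95% counting interval 4.56 to 20.8) and grew to 69.2 at d7 (36.2 to 152) and 165 at d20 (86.9 to 363), with 32.7, 30.6 and 159 for d4, d10 and d15. The intervals cover counting error only. Its level fell from d7 to d10 (log2 fold change -1.15 ± 0.26 SE, adjusted p = 0.000418) and rose again to d15 (log2 fold change 2.37 ± 0.26 SE, adjusted p = 2.69e-08). Its close relative *CREB3L2*, which activates secretory genes in cartilage, was higher on all 6 days, with log2 fold changes from 0.66 at d1 to 1.19 at d20.

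*ATF6*, the sensor whose cleaved fragment activates chaperone genes, stood at 1516, 1411 and 1453 (d0), 1322, 1273 and 1222 (d1), 1406, 1341 and 1413 (d4), 1654, 1469 and 1444 (d7), 1275, 1299 and 1335 (d10), 1444, 1484 and 1391 (d15) and 1413, 1451 and 1471 (d20). All libraries of d1 and d10 lay below those of d0, and the other days overlapped them. It was lower at d1 (log2 fold change -0.20 ± 0.048 SE, adjusted p = 0.00132) and at d10 (-0.16 ± 0.048, adjusted p = 0.00507), and on the other 4 days its log2 fold change lay between -0.07 and 0.06 and did not pass the test. Rescaling to the same total put it lower on all 6 days. *ERN1*, which encodes IRE1, went both ways: it was higher at d4 (0.54) and d15 (0.64) and lower at d10 (-0.49). *XBP1*, the target of IRE1's splicing activity, was higher at every timepoint but d7, with log2 fold changes of 0.49 (d1), 0.73 (d4), -0.06 (d7), 0.42 (d10), 0.70 (d15) and 0.75 (d20). Gene-level values do not show how much of the *XBP1* message was spliced. At d7 the 3 libraries of *XBP1* split, with 1733, 1762 and 2119 against 2066, 1781 and 1996 at d0, and without library 3 the gene was lower (-0.15).

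**Figure D2:**
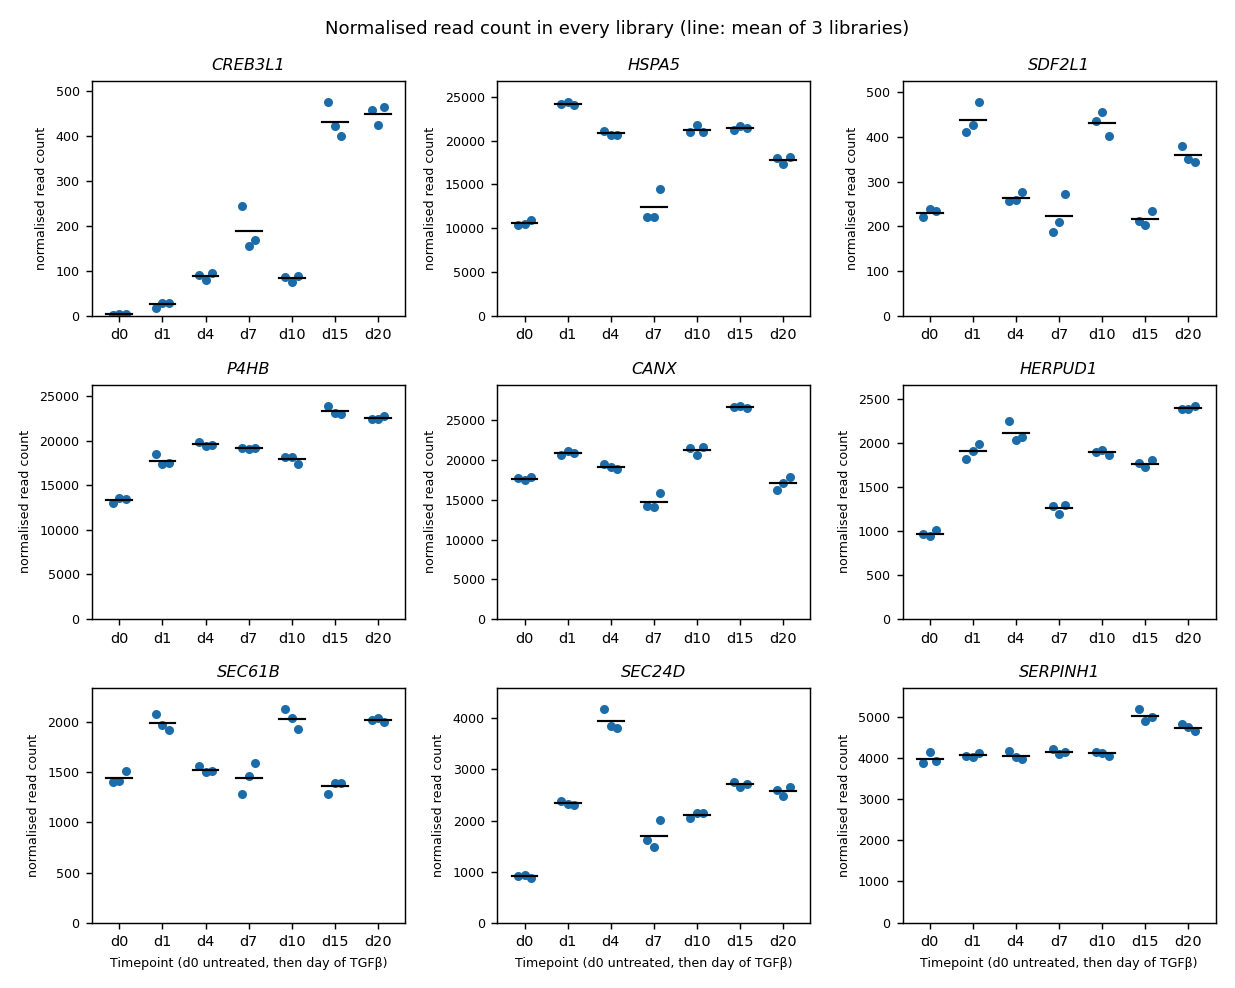
Normalised read count (vertical axes, linear from 0) of 9 members in each of the 21 libraries (points) at each timepoint (horizontal axes), with the mean of 3 libraries as a line. *HSPA5* and *SEC24D* stand above their d0 level on every treated day with a dip at d7, *SDF2L1* and *SEC61B* are high at d1, d10 and d20, and the treated libraries of *SERPINH1* overlap d0 until d10.

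All 9 chaperones and co-chaperones were higher at d1. *HSPA5*, which encodes BiP, the main HSP70 of the ER and its stress gauge, had 10380.3, 10440.4 and 10949.6 normalised reads at d0 and 24206, 24398 and 24057 at d1, a 2.29-fold difference (log2 fold change 1.19 ± 0.062 SE, adjusted p = 3.89e-13). It was lower at d4 than at d1 (-0.22), and at d7 libraries 1 and 2, at 11301 and 11289, came near the untreated level while library 3 had 14538. Without library 3 its d7 value was 0.09 and still passed. From d10 on it stood between 1.69-fold and 2.03-fold of d0. The BiP co-chaperone *DNAJB9*, a product of XBP1 signalling that also damps IRE1, stood at 158, 177 and 142 (d0), 369, 313 and 330.5 (d1), 676, 657 and 655 (d4), 289, 322 and 293 (d7), 357, 339 and 314 (d10), 673, 668 and 714 (d15) and 328, 336 and 312 (d20). It had peaks at d4 and d15 with lower levels between them, and no treated library overlapped d0. Its log2 fold change was 2.06 ± 0.077 at d4 (adjusted p = 1.01e-15) and 2.10 ± 0.077 at d15 (adjusted p = 4.71e-16), the largest of the group, against 0.92 at d7 and 1.03 at d20.

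*CRELD2*, a secreted ER stress-induced protein with disulfide isomerase activity, had the smallest mean change of the chaperones. Its normalised read count stood at 547, 594 and 514 (d0), 644, 650.2 and 667 (d1), 511, 499.5 and 504 (d4), 586, 538 and 571 (d7), 554, 569 and 552 (d10), 609, 599.7 and 604 (d15) and 612, 539.9 and 596 (d20). It was higher at d1 (log2 fold change 0.25 ± 0.055 SE, adjusted p = 0.000642) and d15 (0.13, adjusted p = 0.0337). At d4 it was lower by a margin close to the threshold (-0.12, adjusted p = 0.0497), and leaving out any of most single libraries lost that call. Under the rescaling to the same total it was lower at d4, d7 and d10 (-0.32, -0.16 and -0.21) and passed on no other day. *DNAJC3*, a co-chaperone that also restrains PERK, resembled *DNAJB9* with 0.83 at d4 and 0.87 at d15. *HYOU1*, a large HSP70-like chaperone, and *MANF*, a secreted BiP cofactor, were higher on all 6 days, in the ranges 0.13 to 0.70 and 0.14 to 0.70, though neither passed at d7 without library 3.

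*SDF2L1*, which supports the BiP cycle, alternated between timepoints: it was higher at d1 (0.92), d10 (0.90) and d20 (0.63) and did not pass the test at d4 (0.19), d7 (-0.07) and d15 (-0.10). Without library 3 it was lower at d7 (-0.22). Its libraries read 221, 237 and 234 at d0, 435, 455 and 402 at d10 and 211, 202 and 233 at d15, and it fell between d10 and d15 (log2 fold change -1.0 ± 0.10 SE, adjusted p = 9.91e-09) and rose from d15 to d20 (0.73). *HSP90B1*, the ER form of HSP90, was higher on every day but d7, with its largest value at d1 (0.61), and without library 3 it was lower at d7 (-0.22). *DNAJB11*, another BiP co-chaperone, was higher at d1, d10 and d15, by 0.21 to 0.40.

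All 6 lectin chaperones and disulfide isomerases were higher at d1, d4, d10 and d15, 4 were higher and 1 lower at d7, and 5 were higher at d20. *P4HB*, a disulfide isomerase that is also a subunit of the collagen prolyl hydroxylase, had the largest mean change and stood at 12969, 13557 and 13397 (d0), 18484, 17325 and 17449 (d1), 19879, 19419 and 19502 (d4), 19168, 19032 and 19115 (d7), 18127, 18135 and 17368 (d10), 23876, 23101 and 22979 (d15) and 22391, 22451 and 22752 (d20). Every treated library lay above every untreated one, and the level was highest at d15 (1.75-fold, log2 fold change 0.81 ± 0.033 SE, adjusted p = 3e-15). The step from d4 to d7 did not pass the test for *P4HB* (-0.04). *CALR*, the soluble calcium-binding lectin chaperone, *PDIA3*, the isomerase that works with it, and *PDIA4* had their largest values at d1, between 0.58 and 0.66, and *PDIA6*, another isomerase, likewise (0.44).

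*CANX*, the membrane-bound lectin chaperone, had the smallest mean change in that group and stood at 17685, 17457 and 17797 (d0), 20669, 21068 and 20818 (d1), 19492, 19091 and 18866 (d4), 14162, 14138 and 15801 (d7), 21496, 20562 and 21566 (d10), 26694, 26786 and 26566 (d15) and 16228, 17038 and 17909 (d20). It was above d0 at d1, d4, d10 and d15, below it at d7 in all 3 libraries, and overlapped it at d20. Its log2 fold change was 0.60 ± 0.041 at d15 (adjusted p = 2.29e-11) and -0.27 ± 0.041 at d7 (adjusted p = 9.13e-06). The small increases at d1, d4 and d10 (0.12 to 0.26) did not pass the test under the rescaling to the same total, and quantile normalization turned the one at d4 to -0.11. The d20 value became -0.25 under the rescaling, which passed the test.

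The genes of ER-associated degradation, which returns misfolded proteins to the cytosol, were all 4 higher at d1, d4, d7 and d15, and 3 of them were higher at d10 and d20. *HERPUD1*, an adaptor of the degradation complex and a strong target of the unfolded protein response, stood at 966, 939 and 1005 (d0), 1815, 1904 and 1984 (d1), 2241, 2032 and 2059 (d4), 1284, 1191 and 1288 (d7), 1892, 1921 and 1864 (d10), 1765, 1719 and 1799 (d15) and 2378, 2381 and 2417 (d20). No treated library overlapped d0, d7 was the lowest treated day, and d20 was the highest (2.46-fold, log2 fold change 1.30 ± 0.044 SE, adjusted p = 1.92e-16). *SYVN1*, the ubiquitin ligase HRD1 at the core of the complex, had the smallest mean change and stood at 852, 854 and 883 (d0), 938, 975 and 1018 (d1), 1485, 1413 and 1494 (d4), 1067, 948 and 1001 (d7), 809, 824 and 871 (d10), 1473, 1389 and 1447 (d15) and 887, 861 and 864 (d20). It was high at d4 (log2 fold change 0.76 ± 0.047 SE, adjusted p = 4.67e-12) and d15 (0.73). It overlapped d0 at d10 (-0.05) and d20 (0.01, adjusted p = 0.823), days on which rescaling to the same total made it lower (-0.28 and -0.19). *EDEM1*, which draws misfolded glycoproteins into degradation, was higher on all 6 days, from 0.36 at d1 to 0.98 at d15. The HRD1 partner *SEL1L* was higher on all 6 days too, by 0.09 at d1, 0.11 at d10 and 0.85 at d15, but rescaling to the same total turned the small values at d1 and d10 to -0.11 and -0.12.

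Of the 3 translocation genes, *SEC61A1*, the pore of the channel, had the largest mean change and stood at 5972, 6055 and 6179.8 (d0), 8746, 8647 and 8575 (d1), 9284, 9252 and 8986 (d4), 8083, 8029 and 8242 (d7), 9420.5, 9471 and 9474 (d10), 11556, 11049 and 11295 (d15) and 9651, 9402 and 9454 (d20). All treated libraries lay above all untreated ones, with the highest level at d15 (1.86-fold, log2 fold change 0.90 ± 0.029 SE, adjusted p = 4.67e-17). *SSR1*, a subunit of the translocon-associated complex, had the smallest and stood at 3616, 3499 and 3567 (d0), 4100.1, 3919.8 and 3914 (d1), 4503, 4221 and 4215 (d4), 3091, 3177 and 3426 (d7), 3949, 3898 and 3945 (d10), 4539, 4592 and 4385 (d15) and 4105, 4021 and 4122 (d20). It was higher on every day but d7, when it was lower (log2 fold change -0.14 ± 0.038 SE, adjusted p = 0.00253). Its increases were small (0.14 at d10 to 0.34 at d15), and of them the rescaling left the one at d15 (0.18), with -0.0026 at d20. *SEC61B*, the small beta subunit of the channel, was higher at d1 (0.47), d10 (0.50) and d20 (0.49) and did not pass at d4, d7 and d15 (0.09, 0.00 and -0.08).

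The 5 COPII and KDEL genes were higher on all 6 days. *SEC24D*, a cargo-selecting subunit of the COPII coat whose loss impairs collagen export, had the largest mean change and stood at 910.4, 932 and 876 (d0), 2378, 2319.9 and 2312 (d1), 4176, 3859 and 3817 (d4), 1615, 1489 and 2006 (d7), 2041, 2146 and 2146 (d10), 2763, 2653 and 2707 (d15) and 2606, 2476 and 2665 (d20). It rose to 2.58-fold of d0 at d1 and 4.35-fold at d4 (log2 fold change 2.12 ± 0.069 SE, adjusted p = 7.42e-17), fell back at d7 (-1.22 ± 0.069 against d4, adjusted p = 2.27e-11) and stayed above d0 in every library thereafter. *SEC23A*, the partner of SEC24 in the inner coat, had the smallest mean change and stood at 2807, 2757 and 2784 (d0), 3942, 3879 and 3731 (d1), 5445, 5222 and 5152 (d4), 2879, 2808 and 3627 (d7), 3623, 3552 and 3703 (d10), 3732, 3455 and 3588 (d15) and 4025, 4131 and 4212 (d20). It was highest at d4 as well (1.89-fold, log2 fold change 0.92 ± 0.062 SE, adjusted p = 2.07e-11). At d7 only library 3 was well above d0, and without it the difference was 0.03 and did not pass. Among the others, *KDELR3*, a receptor that returns chaperones with a KDEL end from the Golgi, reached 3.72-fold of d0 at d4 with 1303, 1168 and 1243 normalised reads against 313, 344 and 337, and *KDELR2*, of the same receptor family, 1.98-fold. *SEC31A*, of the outer coat, was the one member of the group with its highest mean at d15 (1.15, against 1.08 at d4).

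*SERPINH1*, which encodes HSP47, the chaperone specific to collagen, did not pass the test in the first 10 days of treatment. Its normalised read count stood at 3884, 4132 and 3917 (d0), 4043, 4017 and 4112 (d1), 4161, 4019 and 3980.4 (d4), 4209, 4093 and 4143 (d7), 4147, 4124 and 4050.2 (d10), 5173, 4887 and 4992 (d15) and 4815, 4742 and 4639 (d20). The treated libraries up to d10 overlapped the untreated ones, with log2 fold changes of 0.03 at d1, 0.03 at d4, 0.06 at d7 and 0.05 at d10 (adjusted p = 0.104 to 0.459), and under the rescaling to equal totals it was lower on these 4 days (-0.18 to -0.13). It was higher at d15 (1.26-fold, log2 fold change 0.34 ± 0.033 SE, adjusted p = 5.89e-09) and d20 (0.25 ± 0.033, adjusted p = 8.91e-07), and the d20 difference was 0.05 and did not pass under the rescaling.

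Promoters were searched for the known response elements of these factors, since many members moved together at d1. RefSeq promoter windows (build GRCh38.p14, 250 bases before to 50 after the start) held 30 of the 33 members, all but *SEC24D*, *KDELR2* and *PDIA3*. The ER stress response element ERSE (CCAAT, 9 free bases, CCACG, either strand) was in windows of 7 members and in 0.0769% of all 35116 windows, ERSE-II (ATTGG, 1 free base, CCACG) in 3 members and 0.0541% of windows, and the UPRE core (TGACG followed directly by TGG, which can overlap the CCACG of the other motifs) in 3 members and 0.729%. Members were counted as genes with an element in any of their 42 windows. The percentages count single windows, the members' own included, so the units differ. The 7 with ERSE were *CALR*, *CANX*, *CRELD2*, *HSP90B1*, *HSPA5*, *PDIA6* and *XBP1*, those with ERSE-II were *HERPUD1*, *HYOU1* and *SDF2L1*, and those with the UPRE core were *HYOU1*, *KDELR3* and *SEC23A*. These elements were found in such promoters originally, so their presence is no independent finding. The sites below, chosen after the values were seen, are those of the members with the largest and the smallest mean change among the chaperones with an element (*HSPA5*, *CRELD2*), a pair with ERSE-II (*SDF2L1*, *HERPUD1*), a lectin chaperone (*CANX*) and the KDEL receptor with the largest change (*KDELR3*). Each is written 5′ to 3′ on the strand of the gene, with the element in capitals.
HSPA5: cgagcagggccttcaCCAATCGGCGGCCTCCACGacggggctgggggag
CRELD2: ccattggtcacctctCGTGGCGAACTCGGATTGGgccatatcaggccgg
CANX: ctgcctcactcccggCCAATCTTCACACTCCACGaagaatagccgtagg
HERPUD1: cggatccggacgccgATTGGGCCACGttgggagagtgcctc
SDF2L1: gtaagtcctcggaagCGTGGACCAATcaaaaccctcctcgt
KDELR3: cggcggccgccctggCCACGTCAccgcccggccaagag

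The site of *HSPA5* lay at chr9:125241376-125241424, a gene of the minus strand, with the element in the direction of the gene. Those of *CRELD2* (chr22:49918539-49918587), *SDF2L1* (chr22:21642099-21642139) and *KDELR3* (chr22:38468035-38468072), all genes of the plus strand, carried it in the opposite direction. Those of *CANX* (chr5:179698763-179698811) and *HERPUD1* (chr16:56932010-56932050) carried it in the direction of the gene, on the plus strand. A match describes the letters of the window and is no evidence of binding. The 10 members with ERSE or ERSE-II had median log2 fold changes of 0.59, 0.27, 0.01, 0.43, 0.44 and 0.31 from d1 to d20, against 0.45, 0.58, 0.19, 0.51, 0.77 and 0.46 for the 20 members with a window and neither motif. The highest mean level came at d1 in 6 of the 10 and in 2 of the 20, and at d15 in 2 and 10. No test was made of these differences.

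The extracellular matrix list (45 genes, of which 41 were tested) increased far more than the members in its summed level. This level, all 45 genes included, was 7.73 times that of d0 on d1 and 12.3 times on d4, and between 10.3 and 11.3 times on the later days. Without *FN1* it was between 6.62 and 9.11 times that of d0. The summed level of the 33 members was 1.46, 1.43, 1.12, 1.39, 1.5 and 1.35 times that of d0 from d1 to d20. Matrix transcripts made up 0.645% to 0.680% of the normalised total in the d0 libraries and 7.0% to 7.2% in those of d4. The members made up 0.707% to 0.713% in those of d0, 0.870% to 0.901% in those of d4 and 0.672% to 0.749% in those of d7. Of the matrix genes tested, 32 were higher and 4 lower on d1, 37 and 1 on d4, 40 and 0 on d7, 33 and 4 on d10, 40 and 0 on d15, and 37 and 2 on d20, against the shares of all genes given above, and the d7 count was 40 and 0 without library 3 too. Fibronectin (*FN1*) alone stood at 4243 ± 182 normalised reads (SD, n = 3) in untreated cells and reached 155910 ± 4909 after 1 day and 539309 ± 7073 after 20 days. The 3 matrix genes with the largest increase at d20 were *POSTN*, which was listed at 0 in untreated cells and at 681 ± 22.5 at d20, *FBLN5* (5.44 ± 1.5 to 1106 ± 50.6) and the collagen gene *COL1A2* (3.06 ± 0.785 to 691 ± 62.3). Perlecan (*HSPG2*) was the gene of this list with a level of at least 50 that was lower at d20 (-0.18, adjusted p = 0.0496).

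**Figure D3:**
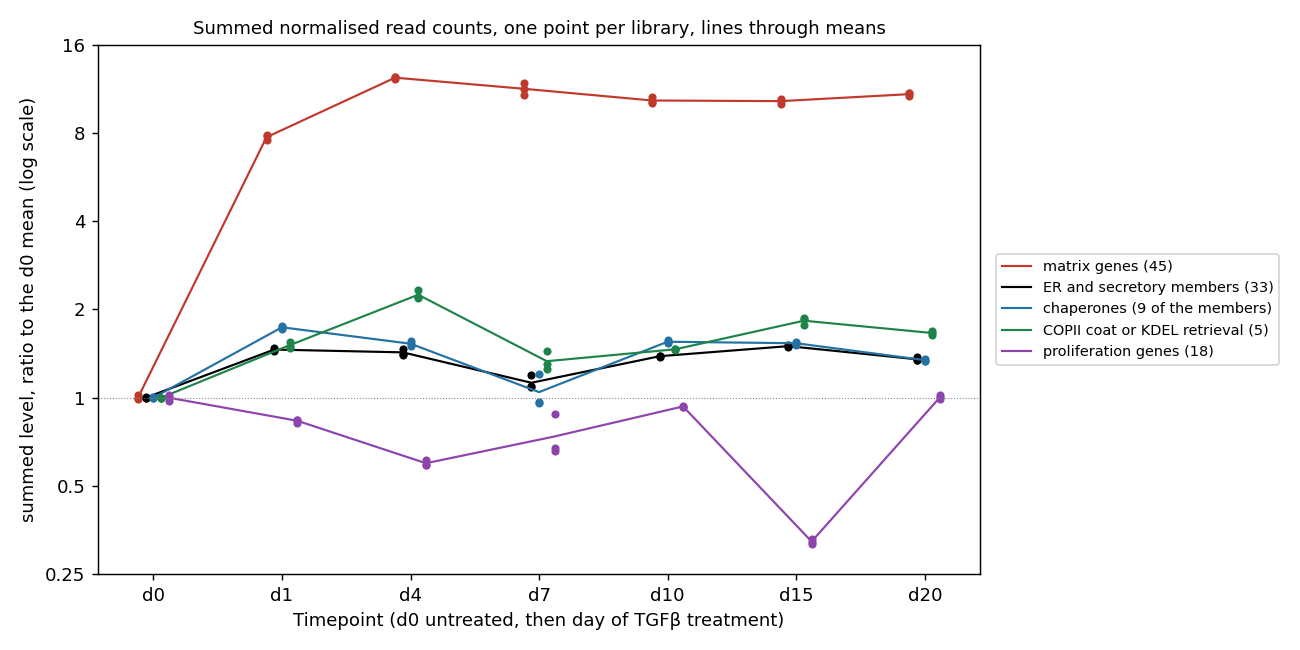
Summed normalised read count of 5 gene lists as a ratio to their mean at d0 (vertical axis, log scale), with a point per library and lines through the means, at the 7 timepoints (horizontal axis). The matrix list rises 7.73-fold at d1 and stays above 10-fold from d4 on, whereas the ER and secretory members stay between 1.12-fold and 1.5-fold with a low at d7, and the proliferation list is lowest at d15.

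The steps between neighbouring timepoints set the members beside the matrix genes. From d1 to d4, 19 members rose and 12 fell (all genes 32.9% and 32%), and the roles went different ways: all 5 COPII and KDEL genes rose (median 0.64), while 6 of 9 chaperones fell and 2 rose (median -0.19) and 5 of 6 lectin chaperones and isomerases fell (median -0.23). In the same step 28 matrix genes rose and 3 fell. From d4 to d7, 23 members fell and 4 rose (all genes 25.5% and 25.5%, member median -0.26), among them all 5 COPII and KDEL genes (median -0.82) and 7 of 9 chaperones (median -0.49), and the 4 that rose were *CREB3L1*, *ATF6*, *CRELD2* and *SEL1L*. Of the matrix genes, 23 rose and 7 fell in this step, but their summed level was lower in every d7 library (10.8 to 11.8 times d0) than in every d4 library (12.2 to 12.4 times). Without d7 library 3, 24 members fell and 4 rose (all genes 30.1% and 29.2%), beside 25 matrix genes rising and 10 falling.

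From d7 to d10 the counts went the other way, with 21 members rising and 8 falling (all genes 36.2% and 35.2%, median 0.26) while 10 matrix genes rose and 22 fell. Without d7 library 3, 22 members rose and 8 fell (all genes 38.4% and 36.8%, median 0.33), beside 12 and 23 matrix genes. The members that fell in this step were *CREB3L1*, *CREB3L2*, *ATF6*, *ERN1*, *P4HB*, *SEL1L*, *SYVN1* and *SEC31A*. From d10 to d15, 20 members rose and 9 fell (all genes 39.3% and 40.5%, median 0.22), beside 28 and 10 matrix genes, and from d15 to d20, 8 rose and 15 fell (all genes 37.7% and 36.3%, median -0.06), beside 15 and 14. Quantile normalization gave 4 rising and 16 falling for that last step (all genes 36.1% and 38%).

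**Figure D4:**
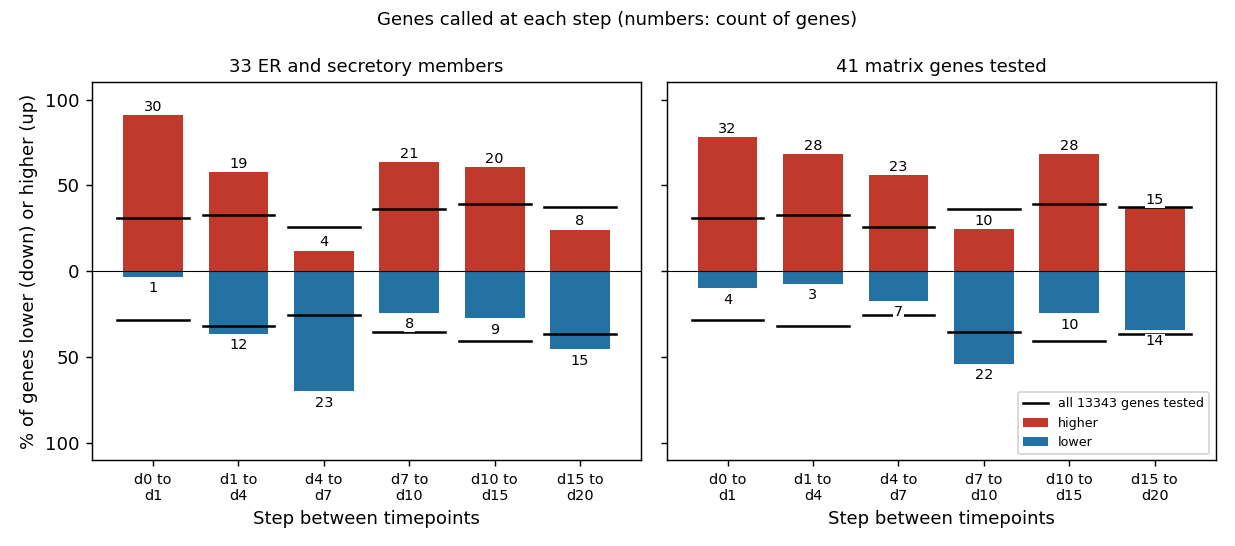
Share of the 33 members (left) and of the 41 matrix genes tested (right) that were higher (red, upward) or lower (blue, downward) than at the timepoint before, in percent on the vertical axis with the counts printed, for the 6 steps on the horizontal axis. Black lines mark the share of all 13343 genes tested. In the step from d4 to d7, 23 members were lower while 23 matrix genes were higher.

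Proliferation genes varied over the same days. The 18 genes listed made up 0.468% to 0.481% of the normalised total at d0, 0.245% to 0.253% at d4 and 0.136% to 0.141% at d15, and were at 0.379% to 0.382% at d10 and 0.411% to 0.423% at d20. All 18 were lower at d4 and at d15 (all genes 35.3% and 37.3%). At d7, 17 were lower with or without library 3 (all genes 32.6% and 34.4%). Of the 33 members, 5 had their highest mean at d4 and 12 at d15. *SDF2L1* and *SEC61B* had their lowest mean at d15 and *CRELD2* at d4. The highest and lowest days of all genes were not computed. *MKI67* stood at 10671 ± 59.7 at d0 and 3291 ± 83.3 at d15. The summed share of the 8 epithelial markers was 1.93% to 2.03% at d0, 1.68% to 3.34% at d7, 1.03% to 1.04% at d10 and 2.45% to 2.5% at d15, and library 3 had the lowest of d7. This sum mostly reflects *KRT5*, *KRT14* and *KRT17*, with means of 224349, 72774 and 39309 in a mean sum of 366128 at d0. Of the 8 markers taken singly, 4 were higher and 4 lower at d15 (all genes 39.2% and 37.3%). The part of proliferation and of the epithelial markers in the members' time course was not tested.

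Library 3 of d7 differed from its companions in the members as well. In library 3, 27 members lay above all d0 libraries, against 22 and 21 in libraries 1 and 2, and it had the highest of the 3 values for 18 members. The shares of all genes for these counts were not computed, and library 3 differed from its companions over all genes too. Whether the members differed more than other genes is therefore not known. Library 3 was highest for *HSPA5*, *HYOU1*, *SDF2L1*, *HSP90B1*, *SEC24D*, *KDELR3* and *SEC23A*, whereas *P4HB*, *CALR*, *DNAJC3* and *SERPINH1* hardly differed between the 3. The same library had an *MKI67* level of 11850 against 7210 and 6834 and a *KRT17* level of 55169 against 184224 and 169632, and whether these differences bear on the members was not tested.

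**Figure D5:**
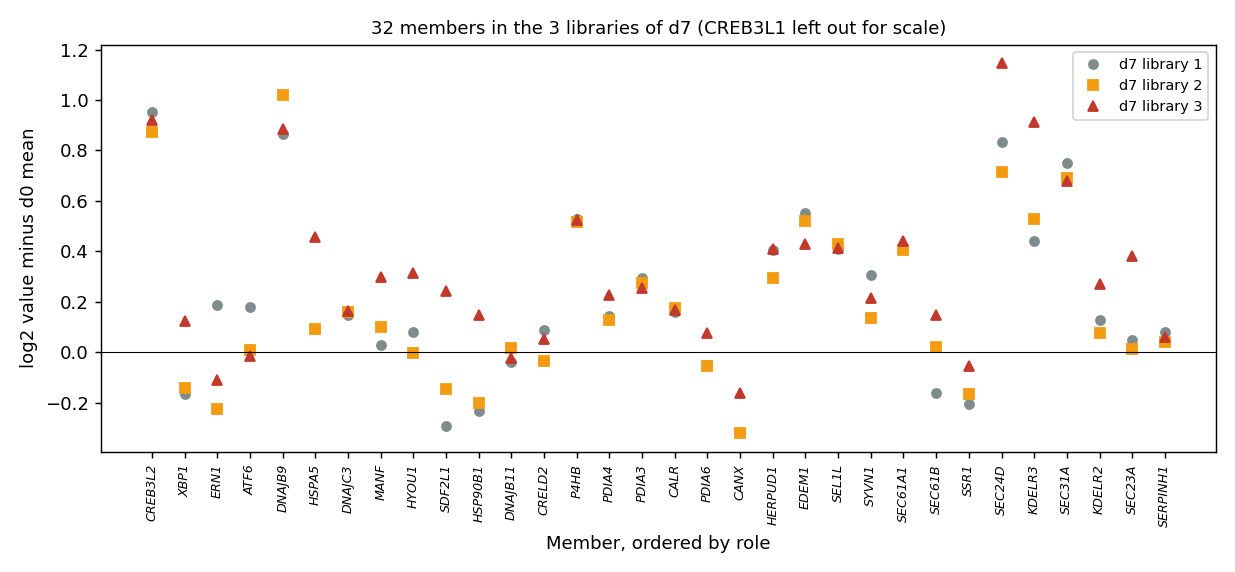
Log2 value minus the mean log2 value at d0 (vertical axis) of 32 members (horizontal axis, ordered by role) in the 3 libraries of d7, with *CREB3L1* left out for scale. Library 3 (triangles) lies well above the other libraries for *HSPA5*, *SDF2L1*, *HSP90B1*, *SEC24D*, *KDELR3* and *SEC23A*, and beside them for *P4HB* and *CALR*.

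Of 128 other ER and secretory genes tested, 79 were higher and 16 lower on d1, 82 and 22 on d4, 57 and 27 on d7, 82 and 17 on d10, 85 and 21 on d15, and 89 and 14 on d20, with medians between 0.07 at d7 and 0.26 at d4. The shares of all genes higher and lower were 31.3% and 28.5% on d1, 36.9% and 35.3% on d4, and 34.6% and 32.6% on d7. They were 37% and 30.7% on d10, 39.2% and 37.3% on d15, and 32.5% and 30.2% on d20. Without library 3 the d7 count was 54 and 38 (all genes 36.8% and 34.4%). Genes of transport between ER and Golgi were higher in 34 of 40 cases at d4 and lower in 2 (median 0.39, all genes 36.9% and 35.3%). The largest increases at d20 were those of *SSR3*, of the translocon-associated complex (3769 ± 37.6 to 9906 ± 61.3, 1.39), *TRAM2*, a translocation protein that takes part in collagen synthesis (1.07), and *COPZ2*, of the COPI coat (0.97). The largest decreases were those of *DDIT3*, which encodes the pro-apoptotic factor CHOP (-0.90), *CREB3L4* (-0.54) and the COPII gene *SEC31B* (-0.47). *DDIT3* varied widely between the untreated libraries (262 ± 106, SD, n = 3) and was higher than d0 at d4 (0.53) and d15 (0.77).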

How the data were processed

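Total RNA of 21 HMLE libraries (7 timepoints, 3 libraries each) was sequenced, and the submitters' processing notes name STAR 2.7, Salmon 1.4 and the genome build hg19, without giving their order. The deposited table holds a normalized signal that the authors made from gene read counts, 1 column a library. In each library the values were whole multiples of 1 step (100% within 0.006 plus 0.002% of the value), so reads were recovered for the depth (18847917 to 22667754 a library) and for the count tests. The deposited values were used as log2(value + 1), and fold changes are on that scale, which understates the change of low genes. Every per-sample column was matched to a timepoint.

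Genes with a mean of at least 10 (13343) were fitted in limma 3.58.1 (R 4.3.3; 1 mean per timepoint, eBayes with trend). Benjamini-Hochberg adjustment was made over all genes tested within each comparison, and a gene was called at an adjusted p under 0.05. The alternatives were edgeR 4.0.16 (quasi-likelihood) and DESeq2 1.42.0 on the recovered reads, a pseudocount of 10, no filter, quantile normalization, a rescaling to equal library totals, a fit of the 2 timepoints compared, a minimum of 1.5-fold, and leaving out each library. In each role, the members with the largest and the smallest mean log2 fold change over the 6 treated days have every library's value given. Of the other pathway and matrix genes, the 3 that rose most and the 3 that fell most by d20 were named among those past the test with a mean of at least 50 at d0 or d20, with *FN1*. The members and lists were chosen with earlier results of these data known. Motifs were searched with Python 3.11.15 in RefSeq windows of GRCh38.p14, a different build from that of the reads, by gene symbol only. Figures were drawn with matplotlib 3.10.9. Counting intervals cover counting error only.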

Additional observations from a re-analysis of the deposited data

Results flagged for a closer look

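4 members were higher than d0 on one treated day and lower on another, and in each case the difference between these days passed the test of limma. *ERN1*, which encodes the sensor IRE1, was higher at d15 (0.64 on the log2 scale) and lower at d10 (-0.49), a difference of 1.13 ± 0.11 SE (adjusted p = 1.02e-08). *CANX* was higher at d15 (0.60) and lower at d7 (-0.27), a difference of 0.86 ± 0.041 (adjusted p = 3.38e-13). *SSR1* was higher at d15 (0.34) and lower at d7 (-0.14), a difference of 0.48 ± 0.038 (adjusted p = 8.89e-10). *CRELD2* was higher at d1 (0.25) and lower at d4 (-0.12), a difference of 0.37 ± 0.055 (adjusted p = 6.08e-06), and its value at d4 was close to the threshold. The pairs of days were those with the highest and the lowest value, so they were chosen by their difference. The members were also taken because they were called in opposite directions against the same d0. A pass was therefore nearly fixed in advance, and these p-values add no support. The share of all genes called both ways was not computed, so the count has no background beside it.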

How the results depend on the processing

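No paired analysis was possible because the table's columns carry none of the labels' replicate numbers. Low-count genes such as *CREB3L1* at d0 (9 reads in all) are limited by depth.

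Of 169 calls among the 198 comparisons of a member with d0, edgeR kept 163, DESeq2 166, a pseudocount of 10 168, no filter 166 and a fit of the 2 timepoints compared 161. Quantile normalization kept 150 (18 lost, 1 turned, 9 gained). The rescaling to the same total kept 137 (30 lost, 2 turned, 24 gained) and put *SYVN1* (-0.19) and *SSR1* (-0.0026) at d20 on the lower side. Counts of lower members under the rescaling were 4, 4, 11, 6, 3 and 4 from d1 to d20, with 12 higher at d7. The shares of all genes under the rescaling are given above. Under quantile normalization the counts of lower members were 2 for d1, 4 for each of d4, d7 and d10 and 2 for d20. Of all genes, 34.8%, 40.9%, 39.8%, 35.3% and 37.2% were lower on these days. From d15 to d20, 4 members rose (all genes 36.1%). With a minimum of 1.5-fold, 12, 15, 6, 10, 19 and 13 members were higher and 0 lower. The steps then had 6, 1, 3, 7 and 1 rising and 1, 10, 1, 1 and 3 falling. The shares of all genes at this minimum were not computed. The single lower call at d4, *CRELD2*, became 0 with a pseudocount of 10, no filter, the 2 timepoints alone and DESeq2, and 2 with edgeR. The 2 timepoints alone gave 15 higher and 1 lower member at d7 (all genes 28.2% and 25.6%). They gave 1 member rising from d4 to d7 (all genes 14.8%). Leaving out single libraries gave 0 to 1 lower at d4 (0 without any of d0 libraries 1 and 2, any of d1, d4, d10 and d15, or d20 library 3), 2 to 5 lower at d7 (5 without d7 library 3), and 1 to 4 rising from d4 to d7 (fewest without d4 library 2 or d7 library 1). The cause of these changes was not tested.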

Other observations

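Genes of the PERK branch and other regulators of the unfolded protein response were outside the 33 genes but on the list of other pathway genes. Except for *DDIT3*, those named here were chosen after their values were seen. At d1, when all 9 chaperones were higher, *DDIT3*, which encodes CHOP, was lower (262 ± 106 normalised reads at d0, 141 ± 8.98 at d1, SD, n = 3, limma adjusted p = 0.00149), and it was lower at d10 (-1.02 on the log2 scale) and d20 (-0.90) too. It was higher at d4 (0.53) and d15 (0.77). *PPP1R15A*, which encodes the phosphatase subunit GADD34, was higher at d4 (1.45), d7 (0.73), d15 (1.67) and d20 (0.29). *EIF2AK3*, which encodes PERK, was higher at d4 (0.64), d7 (0.19) and d15 (0.66). Without d7 library 3 the d7 values of these genes were 0.84 for *PPP1R15A* and 0.32 for *EIF2AK3*. *ATF4*, the transcription factor of this branch, was lower at d7 (-0.47, with libraries at 7359, 7313 and 9887, and -0.61 without library 3) and higher at d15 (0.20) and d20 (0.18). *TRIB3*, one of its targets, was lower at d7 (-0.21, and -0.38 without library 3) and higher at d1 (0.35), d10 (0.32), d15 (0.89) and d20 (0.53). Of the 10 regulators tested, 2 were higher and 5 lower at d1 (all genes 31.3% and 28.5%), and 4 and 3 at d4 (36.9% and 35.3%). The counts were 5 and 3 at d7 (34.6% and 32.6%), the same without library 3 (36.8% and 34.4%). They were 2 and 4 at d10 (37% and 30.7%), 7 and 2 at d15 (39.2% and 37.3%) and 4 and 4 at d20 (32.5% and 30.2%). *CREB3* was higher and *MBTPS2* lower on all 6 days.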
